A study of Mus musculus with 6 samples.

Results

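Chemokines and chemokine receptors were followed in RNA of stria vascularis from Slc26a4-/- mice and Slc26a4+/+ mice. Members were all probe sets of the array whose platform gene symbol began with Ccl, Cxcl, Ccr or Cxcr and a digit, together with Cx3cl1, Cx3cr1, Xcl1, Xcr1, Ackr1, Ackr2, Ackr3, Ackr4, Ccrl2, Cmklr1 and Rarres2. This gave 57 genes of the 18193 genes with a name on the array, measured by 92 of 45037 probe sets. The rule used gene symbols and no signals, but it was chosen with earlier results of these data known. Another 4 probe sets matched the rule but carried several gene symbols, and no gene was named from them.

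The stria vascularis is the vascularized epithelium of the cochlea that secretes potassium and generates the endocochlear potential. Slc26a4 encodes pendrin, an anion exchanger of the inner ear, and its loss in mice is a model of Pendred syndrome. The Slc26a4-/- group carried the knockout on both copies in all tissues, the control group carried both intact copies, and the series names the strain 129S6 for both. All mice were adult, no other treatment is named, and the tissue was not perfused, so that blood could remain in the capillaries. A pair of animals contributed the RNA of each pool, which was amplified and hybridized to an array of its own, and 3 pools were measured for either genotype, 6 arrays in all. The p-values therefore measure the spread between pools of animals.

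Chemokines are small secreted or membrane-anchored proteins that guide leucocytes along gradients. They are classed by the spacing of their first cysteines into CC, CXC, XC and CX3C ligands, and signal through receptors coupled to inhibitory G proteins, while atypical receptors bind ligands without that signal and remove them. In the cochlea, perivascular and resident macrophages of the stria vascularis and the spiral ligament carry Cx3cr1, the receptor of fractalkine.

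Signals are GCOS intensities on a linear scale. Background was taken on each array from 44 probe sets of olfactory receptors, genes used mainly in the nose, as their 95th percentile, and was 187.1 to 319.2. A gene was counted as above background when it exceeded this level on at least 2 arrays of a genotype. The signal of Slc26a4 was 1353.8, 1262.1 and 793.0 in the Slc26a4+/+ pools and 520.2, 716.8 and 618.5 in the Slc26a4-/- pools, and since the sources used here do not place this probe set relative to the deleted part, it does not check the labels. For Gapdh, the control signal from the 3′ end was divided by that from the 5′ end as a sign of RNA quality, and this ratio was 2.25, 7.19 and 10.5 in the Slc26a4+/+ pools and 3.34 to 3.80 in the Slc26a4-/- pools. Y-linked Eif2s3y read 639.9 to 1540.8 in the Slc26a4+/+ pools and 3.1 to 3.6 in the Slc26a4-/- pools. Xist, which is transcribed in females, read 770.6, 3358.3 and 1022.1 against 5529.6 to 5862.7, above background on every array. The sex of the pools thus moved with the genotype, and the Slc26a4+/+ pools also differed among themselves. The part of sex in the results was not tested beyond a fit with the signal of Xist as a covariate.

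Of the 57 genes, 2 were called higher and 1 lower in Slc26a4-/- stria vascularis. The receptor Cx3cr1 rose 2.70-fold, and the receptor Ccr6 fell to 0.409 of its control signal. The eosinophil-attracting ligand Ccl11 was called higher although its signal was below background on all 6 arrays. A further ligand, Cxcl16, had 1 probe set that rose and another that did not pass the test. All other members did not pass (limma, adjusted p under 0.05 over all probe sets). Among all genes 1.88% were called higher and 0.803% lower, so the count of members called was near the background of the array. With Xist as a covariate none of them passed (adjusted p = 0.376 for Cx3cr1, 0.294 for Ccl11 and 0.598 for Ccr6). Their log2 estimates in that fit were 1.21, 3.98 and -1.36. The standard errors were 0.32, 0.93 and 0.52, beside 0.17, 0.50 and 0.27 without Xist. Xist itself did not overlap between the genotypes, so this fit cannot tell sex and genotype apart. At an unadjusted p under 0.05 there were 9 members with a higher and 1 with a lower signal, beside 8.48% and 6.42% of all genes.

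The signals of 8 members were above every Slc26a4+/+ array on every Slc26a4-/- array, against 11.2% of all genes. Only Ccr6 was below every Slc26a4+/+ array on every Slc26a4-/- array, against 9.73% of all genes. The median log2 fold change of the 57 genes was 0.11, beside -0.03 over all genes. Of the 57 estimates 33 were positive, beside 8557 of 18193 over all genes. These values include 34 members below background on all 6 arrays. At the level of probe sets 4 of the 92 passed the test, beside 1.73% of all probe sets. In tissue RNA, fewer cells of a type and less RNA per cell cannot be told apart, and this holds for every member below.

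**Figure D1:**
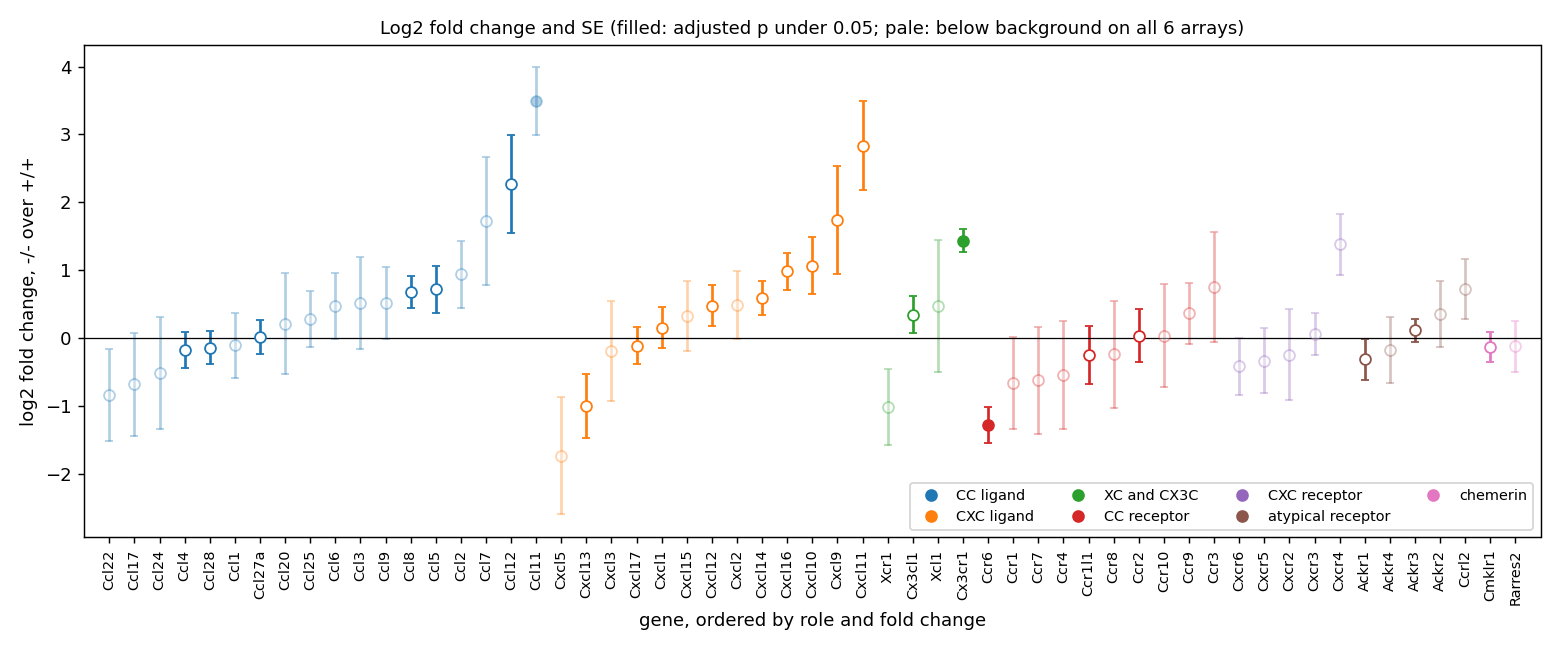
Log2 fold change (Slc26a4-/- over Slc26a4+/+) with its standard error for the 57 member genes, ordered by role and size. Filled symbols passed the test (Cx3cr1, Ccl11 and Ccr6), and pale symbols lay below background on all 6 arrays, 34 genes in all, for which the value is a difference of log2 signals and no fold change is claimed.

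Most of the family was near or under the detection limit. By the rule above 19 genes were above background, 5 of 18 CC ligands, 7 of 13 CXC ligands, 2 of 4 XC and CX3C genes, 2 of 10 CC receptors, none of the 5 CXC receptors, 2 of 5 atypical receptors and 1 of 2 chemerin genes. The atypical receptor Ackr3 read 4540 to 6913 and lay far above background on all arrays. For a gene below background on all 6 arrays, no fold change is given.

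**Figure D2:**
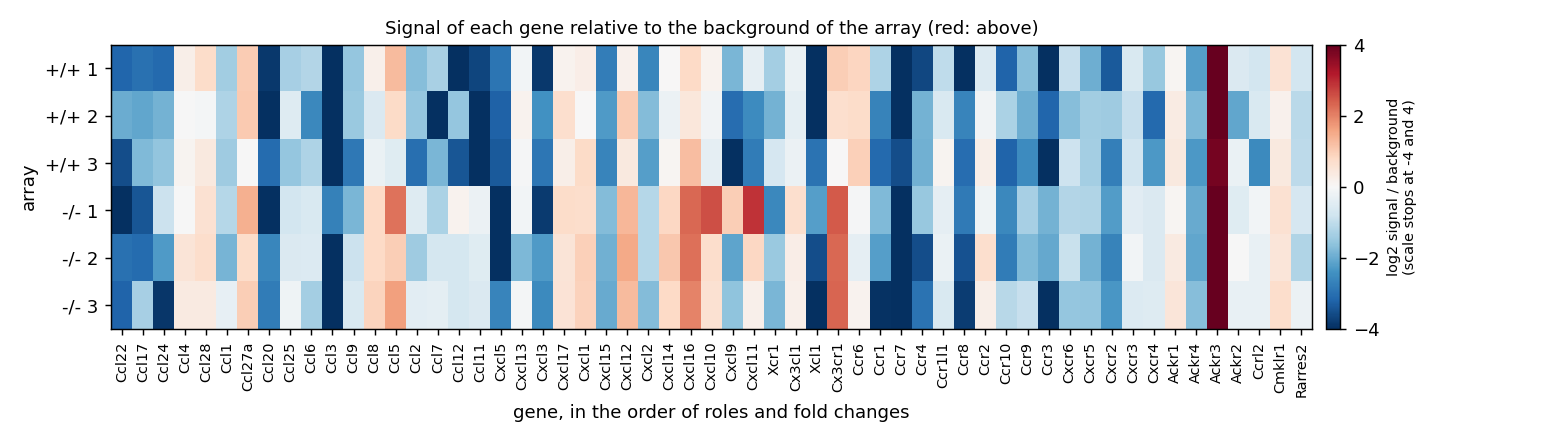
Log2 ratio of the signal of each member gene to the background of its array, for the 6 arrays in rows and the 57 genes in columns. Red is above and blue below background. Cxcl9, Cxcl10 and Cxcl11 stand out on Slc26a4-/- array 1.

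Among the CX3C genes, Cx3cr1 is the receptor of fractalkine and is carried by monocytes, microglia and tissue macrophages. Its brighter probe set read 398.4, 431.5 and 325.7 in the Slc26a4+/+ pools and 1014.3, 1008.3 and 1079.7 in the Slc26a4-/- pools. The genotypes did not overlap, the lowest Slc26a4-/- array was more than double the highest Slc26a4+/+ array, and Slc26a4+/+ array 3 was just above its background of 319.2. The means were 385.2 ± 54.1 and 1034 ± 39.6 (SD, n = 3 each), and the log2 fold change was 1.43 with a standard error of 0.17 (limma, adjusted p = 0.00292). Cx3cr1 also passed when any 1 of the 6 arrays was left out, with adjusted p-values from 0.00401 to 0.0356. Without the trend of the spread on the signal it did not (adjusted p = 0.0870). A second probe set of Cx3cr1 was below background on all 6 arrays with signals of 5.0 to 21.0, and averaging both probe sets lowered the log2 fold change to 0.58 (adjusted p = 0.623).

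Markers of macrophages moved in the same direction as Cx3cr1. Of 14 macrophage genes 7 rose and none fell, and their summed signal was 6139.5 to 8292.9 in the Slc26a4+/+ pools and 32898 to 34736 in the Slc26a4-/- pools. Those with the smallest p-values were Lyz2, a lysozyme, with a log2 fold change of 4.30, Mpeg1, a pore-forming protein of macrophages, with 3.27, and C1qa, a chain of complement C1q, with 3.05. Of 4 monocyte genes none passed or was above background (limma, 0 at an unadjusted p under 0.05), and their summed signal was 348.3 to 516.0 in the Slc26a4+/+ and 447.6 to 532.5 in the Slc26a4-/- pools. The part of macrophage number in the signal of Cx3cr1 was not tested.

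Cx3cl1, the membrane-anchored ligand of Cx3cr1, did not pass. Its signal was 164.7, 203.4 and 269.1 in the Slc26a4+/+ pools, all below background, and 300.8, 246.6 and 248.8 in the Slc26a4-/- pools, all above it. The genotypes overlapped, and the log2 difference was 0.34 with a standard error of 0.27 (limma, adjusted p = 0.681). Xcl1 and its receptor Xcr1, which marks cross-presenting dendritic cells, were below background on all 6 arrays.

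Among the CC ligands, Ccl11, also known as eotaxin, attracts eosinophils through Ccr3. It read 15.8, 10.8 and 13.5 in the Slc26a4+/+ pools and 158.8, 144.2 and 144.0 in the Slc26a4-/- pools. The arrays of the genotypes were far apart, yet all 6 values lay below background. The test called it higher (log2 difference 3.49, standard error 0.50, limma, adjusted p = 0.00792), and because both genotypes were below background this difference is not read as a fold change. The call was lost when any 1 Slc26a4-/- array was left out, with adjusted p-values of 0.0689, 0.0625 and 0.0732 without replicates 1, 2 and 3. Its receptor Ccr3 was below background on all 6 arrays.

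**Figure D3:**
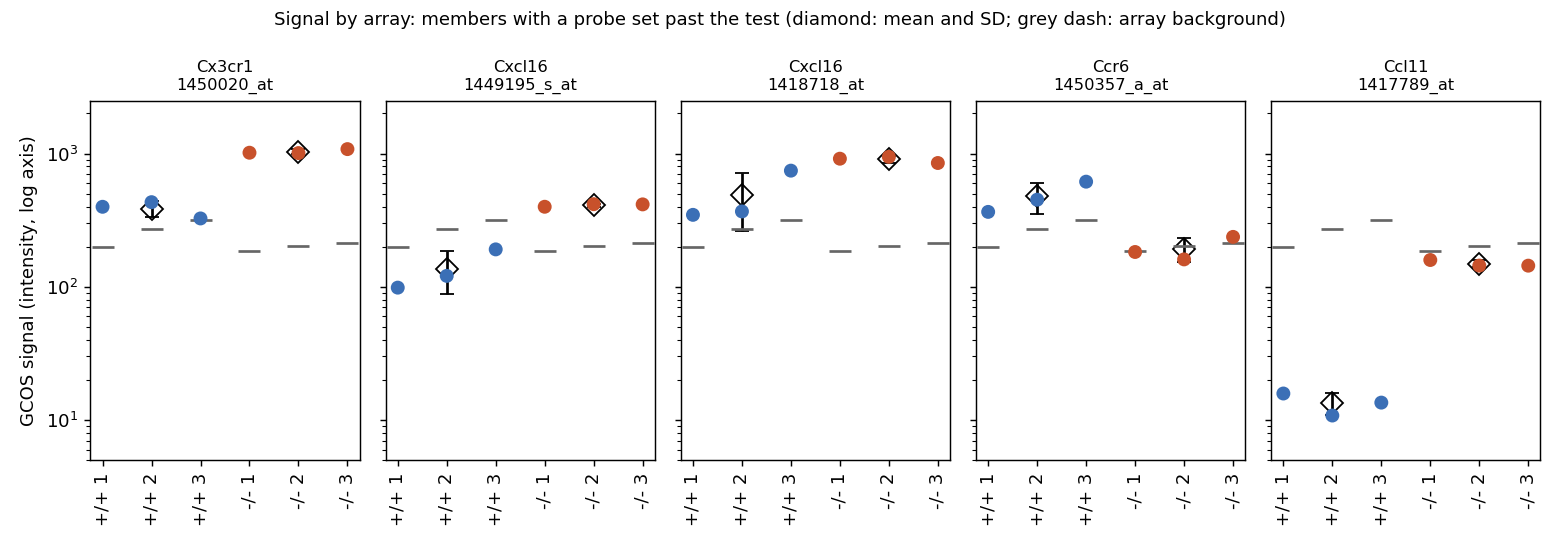
GCOS signal on each array (log axis) for the probe sets of members that passed the test, and for the brighter probe set of Cxcl16. Blue points are Slc26a4+/+ and red points Slc26a4-/- arrays, diamonds with bars are mean ± SD (n = 3), and grey dashes are the background of each array. Cx3cr1 and Ccr6 were above background on all Slc26a4+/+ arrays, Ccl11 on none of the 6.

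Ccl11 lies on chromosome 11 in a cluster of genes for ligands of monocytes and eosinophils, in the order Ccl2, Ccl7, Ccl11, Ccl12, Ccl8 and Ccl1. The log2 differences along this order were 0.94, 1.72, 3.49, 2.27, 0.68 and -0.11, and of these genes Ccl11 alone passed the test. Ccl12, a ligand of Ccr2, read 10.7, 93.1 and 30.0 in the Slc26a4+/+ pools and 205.1, 125.5 and 130.2 in the Slc26a4-/- pools, and was above background on 1 array only. The groups were apart, and the adjusted p was 0.216 (limma). Further along the chromosome followed Ccl5, Ccl9, Ccl6, Ccl3 and Ccl4, with log2 differences of 0.72, 0.51, 0.47, 0.51 and -0.18, of which none passed.

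Ccl8, another monocyte attractant, was the member of the cluster above background. Its signal was 228.2, 182.2 and 268.3 in the Slc26a4+/+ pools and 324.4, 356.4 and 394.6 in the Slc26a4-/- pools. All Slc26a4-/- arrays were above all Slc26a4+/+ arrays, but the log2 fold change of 0.68 with a standard error of 0.24 did not pass (limma, adjusted p = 0.263). Ccl5, or RANTES, an attractant of T cells and monocytes, read 480.8, 461.4 and 229.0 against 843.8, 399.3 and 668.9 (adjusted p = 0.463), and here the genotypes overlapped. Ccl4 (log2 fold change -0.18), the epithelial ligand Ccl28 (-0.14) and the skin-associated Ccl27a (0.01) were above background with overlapping genotypes. The other 13 CC ligands, Ccl11 and Ccl12 included, were not above background by the rule, with signals from 6.0 to 205.1, Ccl2 among them with 39.7 to 160.6.

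Among the CXC ligands, Cxcl16 is a membrane-anchored chemokine and scavenger receptor of macrophages and dendritic cells that binds Cxcr6. Its fainter probe set read 98.5, 120.7 and 190.8 in the Slc26a4+/+ pools, all below background, and 398.6, 416.8 and 415.3 in the Slc26a4-/- pools, all above it. It was at least 1.59-fold higher in Slc26a4-/- (log2 difference 1.64, standard error 0.29, limma, adjusted p = 0.0219). The brighter probe set, which stands for the gene here, read 346.6, 367.7 and 744.1 against 914.8, 944.5 and 849.2. The genotypes did not overlap at either probe set, but Slc26a4+/+ array 3 lay close to the Slc26a4-/- arrays at the brighter one, where the log2 fold change was 0.98 with a standard error of 0.27 (adjusted p = 0.138). Without Slc26a4+/+ replicate 3 this probe set passed (log2 fold change 1.34, adjusted p = 0.00452). It also passed with the Gapdh ratio as a covariate (limma, adjusted p = 0.0310), but not with Xist (0.641). Averaging both probe sets gave a log2 fold change of 1.31 (limma, adjusted p = 0.0280). The fainter probe set lost its call without Slc26a4+/+ replicate 2 (adjusted p = 0.0829) and without Slc26a4-/- replicate 1, 2 or 3 (0.120, 0.128 and 0.140).

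The ligands of Cxcr3, Cxcl9, Cxcl10 and Cxcl11, are classical products of interferon-stimulated cells that attract activated T cells and natural killer cells. Their genes are neighbours on chromosome 5. Promoter sequences, the 250 bases before the start of transcription from RefSeq (build GRCm38.p6), are shown for Cxcl9 (chr5:92328080-92328329, minus strand) and Cxcl10 (chr5:92348890-92349139, minus strand), because the signals of these genes were high together on a single array. Capitals mark matches on either strand to GAAANNGAA, letters of an interferon regulatory factor element, and to GGGANNTTC, letters of an NF-kappaB element.
Cxcl9: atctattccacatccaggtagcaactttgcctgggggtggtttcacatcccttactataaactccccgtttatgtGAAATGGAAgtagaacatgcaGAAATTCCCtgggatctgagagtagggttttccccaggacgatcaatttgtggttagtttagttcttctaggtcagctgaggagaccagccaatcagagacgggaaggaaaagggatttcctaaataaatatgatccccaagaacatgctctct
Cxcl10: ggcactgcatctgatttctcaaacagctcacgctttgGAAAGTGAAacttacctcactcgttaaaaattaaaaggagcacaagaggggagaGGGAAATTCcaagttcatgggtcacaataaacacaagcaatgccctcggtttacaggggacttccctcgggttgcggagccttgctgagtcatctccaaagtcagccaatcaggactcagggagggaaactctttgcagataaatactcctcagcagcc
Both promoters held 1 match to each of these motifs. Cxcl11, which was also highest on that array, had no promoter entry and could not be examined. In Cxcl9 the matches began 175 and 154 bases before the start, and in Cxcl10 they began 213 and 159 bases before it. Of 32851 promoters of the same length 7.13% held the first motif, 3.23% the second and 0.25% both, and the matches do not overlap each other. The letters TTCNNNGAA of a gamma-activated element, present in 7.02% of promoters, were in neither window. The promoter of Cx3cr1 held none of the 3 motifs. Of the 2 promoter entries of Ccr6, the first held 2 matches to TTCNNNGAA and none of the others, and the second held none of the 3. A match describes letters and not a site in use.

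Cxcl11 read 156.7, 47.3 and 45.6 in the Slc26a4+/+ pools, all below background, and 1377.3, 361.5 and 246.4 in the Slc26a4-/- pools, all above it. All Slc26a4-/- arrays were above all Slc26a4+/+ arrays, with array 1 far above the other two. The log2 difference of 2.83 with a standard error of 0.66 did not pass (limma, adjusted p = 0.0735). With the replicate number as a block the standard error was 0.30 and the adjusted p 0.00295, so the call depended on the pairing of the arrays. Without Slc26a4+/+ replicate 1 the adjusted p was 0.0287. A second probe set of Cxcl11 was below background on all 6 arrays (log2 difference 0.46).

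Cxcl10 read 219.2, 244.5 and 248.3 in the Slc26a4+/+ pools and 1120.6, 331.2 and 328.6 in the Slc26a4-/- pools. Again the genotypes were apart, and Slc26a4-/- array 1 was 3.38 times the next array. The log2 fold change was 1.07 with a standard error of 0.42 (limma, adjusted p = 0.345), and without Slc26a4-/- replicate 1 it was 0.48 (adjusted p = 0.736). Cxcl9 at its fainter probe set read 7.3, 20.1 and 17.4 against 671.7, 32.5 and 24.7, and at the probe set that stands for the gene 56.7, 32.7 and 17.7 against 368.5, 47.3 and 70.6. Both probe sets were above background on Slc26a4-/- array 1 and on no other array. None of the Cxcl9 or Cxcl10 probe sets passed the test.

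**Figure D4:**
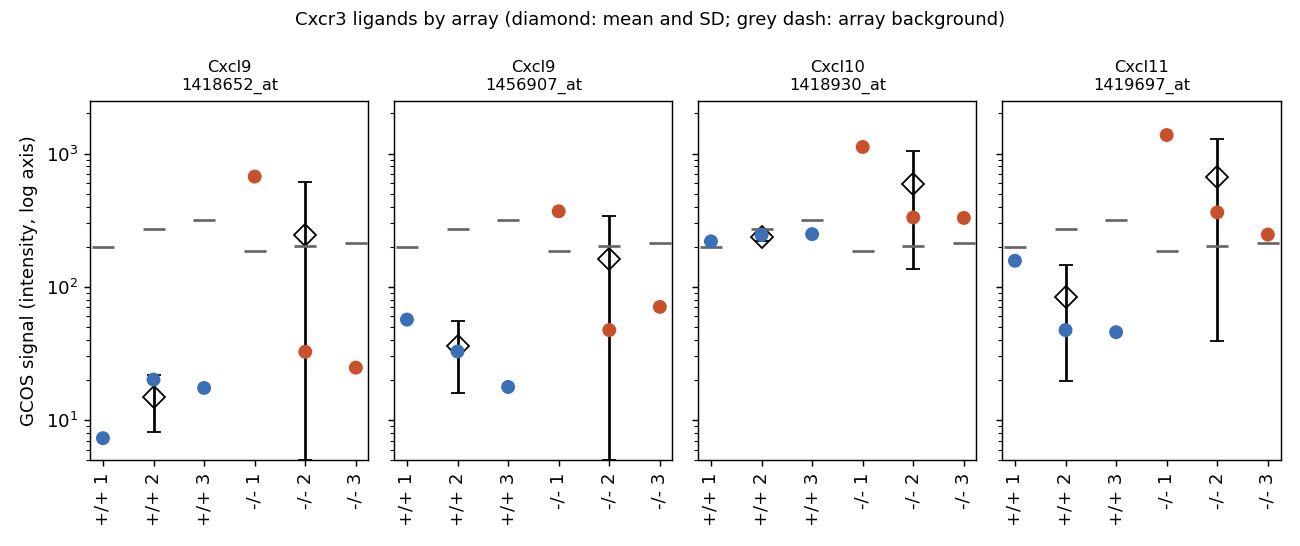
GCOS signal on each array (log axis) for Cxcl9 (both probe sets), Cxcl10 and Cxcl11. Blue points are Slc26a4+/+ and red points Slc26a4-/- arrays, diamonds with bars are mean ± SD (n = 3, bars that reach the lower edge extend below 0), and grey dashes are the background of each array. Slc26a4-/- array 1 is the highest in each panel.

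The high values on Slc26a4-/- array 1 were shared by few genes. Only 26 of the 45037 probe sets were at least 2-fold above every other array there, and 4 of these were the Cxcl9, Cxcl10 and Cxcl11 probe sets. The same count was 56, 13 and 187 in the Slc26a4+/+ pools and 4 and 6 on the other Slc26a4-/- arrays, with no member among them. Other genes among the 26, named after their values were seen, were the interferon-induced Ifit2, Rsad2 and Iigp1. The 26 also held Lce1h, Pak3, Prmt7, Abcc5, Mier2, Lpo, Adra2c, Tgfb1 and Dse, and a cause shared by the 26 was not tested. Ifit2 read 4523 on that array, 633.3 and 886.2 on the other Slc26a4-/- arrays and 326.3 to 554.9 in the Slc26a4+/+ pools. In the same order Rsad2 read 2160.6, 450.2 and 540.5, against 205.5 to 260.8, at the fainter of its probe sets among the 26. At the brighter of them Rsad2 read 5749.8, 2312.3 and 2516.5, against 1405.3 to 1794.2. Iigp1 read 4133, 1040.8 and 1491.5, against 415.6 to 558.4. For each of these genes all Slc26a4-/- arrays were above all Slc26a4+/+ arrays. That array 1 was the highest followed from the way the 26 were selected and adds nothing. The receptor of these ligands, Cxcr3, read 130.2 to 190.8 and was below background on all 6 arrays. Of 6 T cell genes none passed (limma, 1 at an unadjusted p under 0.05), and Cd3d, Cd3e and Cd3g were below background throughout, as were the 4 natural killer cell genes (0 at an unadjusted p under 0.05). Cd8a was above background on all 6 arrays, with 227.1 to 504.2 in the Slc26a4+/+ pools and 370.9 to 410.3 in the Slc26a4-/- pools (log2 fold change 0.09, adjusted p = 0.938). The nearest to the threshold was Cd4, the coreceptor for class II molecules, which read 11.5, 21.6 and 30.5 in the Slc26a4+/+ pools and 346.3, 67.5 and 300.3 in the Slc26a4-/- pools (log2 difference 3.29, adjusted p = 0.0525). It was above background on 2 Slc26a4-/- arrays and on no Slc26a4+/+ array. The study reported no present call for Cd4 in either genotype.

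Cxcl12, the stromal ligand of Cxcr4, was above background on all arrays and read 224.6, 548.5 and 420.8 against 468.3, 577.0 and 513.3. The genotypes overlapped (log2 fold change 0.47, standard error 0.30, limma, adjusted p = 0.605). Cxcl14, an epithelial chemokine, read 203.2, 226.9 and 335.3 against 329.1, 431.7 and 371.6, with a log2 fold change of 0.59 that did not pass (adjusted p = 0.391). Cxcl1, a neutrophil attractant, and Cxcl17, a mucosal chemokine, had log2 fold changes of 0.15 and -0.11 with overlapping genotypes. Cxcl2, Cxcl3, Cxcl5, Cxcl9, Cxcl13 and Cxcl15 were not above background by the rule. Of the 13 CXC ligands, counted at the probe set that stands for the gene, none passed and 4 were higher at an unadjusted p under 0.05, beside 8.48% of all genes.

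Fainter probe sets of these ligands gave other estimates. For Cxcl1 a probe set below background on all 6 arrays read 72.2, 33.1 and 7.5 against 135.1, 148.2 and 175.7 (log2 difference 2.54, adjusted p = 0.171), and one of Cxcl14 read 6.0 to 27.0 against 33.2, 115.2 and 169.8 (2.76, adjusted p = 0.161). Probe sets of Cxcl13, the B-cell attractant, disagreed in sign, with log2 differences of -1.01 and 1.18 (adjusted p = 0.448 and 0.175). None of these passed the test.

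Among the CC receptors, Ccr6 binds Ccl20 and is carried by B cells, some T cells and immature dendritic cells. Its signal was 364.8, 450.4 and 615.0 in the Slc26a4+/+ pools and 182.4, 160.5 and 236.8 in the Slc26a4-/- pools. The genotypes did not overlap, and 3 Slc26a4+/+ arrays but only 1 Slc26a4-/- array lay above background. The means were 476.7 ± 127.2 and 193.2 ± 39.3 (SD, n = 3 each), a log2 fold change of -1.29 with a standard error of 0.27 (limma, adjusted p = 0.0441). The call was lost after centring on the median (adjusted p = 0.0585), after quantile normalization (0.0514) and without the trend (0.210). Of the single-array omissions, only that of Slc26a4+/+ replicate 1 kept the call (adjusted p = 0.0251). The adjusted p was 0.144 and 0.0832 without Slc26a4+/+ replicates 2 and 3, and 0.180, 0.196 and 0.104 without Slc26a4-/- replicates 1, 2 and 3. With Slc26a4+/+ replicate 1 alone against the Slc26a4-/- arrays, which leaves out the arrays with high Gapdh ratios, the log2 fold change was -0.94 (adjusted p = 0.189).

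Markers of cells known to carry Ccr6 were counted beside it. All 3 measured B cell genes were below background on all 6 arrays, with a summed signal of 248.3 to 400.7 in the Slc26a4+/+ pools and 268.4 to 282.9 in the Slc26a4-/- pools. Of 7 dendritic cell genes 2 rose, Cd83, a maturation marker, at least 2.01-fold, and H2-Aa, a class II histocompatibility chain, with a log2 fold change of 1.91. The study lists both as markers of macrophages or dendritic cells. Flt3, Ccr7 and Xcr1 were below background on all 6 arrays. Zbtb46 and Itgax did not pass (limma, adjusted p = 0.391 and 0.0706). The ligand Ccl20 read 10.1 to 37.7 and was below background on all arrays.

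Ccr2, the monocyte receptor of Ccl2, Ccl7, Ccl8 and Ccl12, read 136.8, 245.4 and 372.1 against 166.6, 321.4 and 249.1. The genotypes overlapped (log2 fold change 0.03, standard error 0.39, limma, adjusted p = 0.986), and its other 3 probe sets were below background. The remaining 8 CC receptors were not above background by the rule. Ccr9, the gut-homing receptor, had 5 probe sets, all below background on all arrays, with log2 differences from -1.95 to 1.39.

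All 5 CXC receptors were below background on all 6 arrays, with signals of 19.3 to 190.8 at the probe set that stands for the gene. Cxcr4, the receptor of Cxcl12, read 69.9, 31.4 and 65.2 in the Slc26a4+/+ pools and 124.9, 136.0 and 148.4 in the Slc26a4-/- pools. These did not overlap, but the difference did not pass (log2 difference 1.38, limma, adjusted p = 0.227). Cxcr6, the receptor of Cxcl16, gave log2 differences of -0.42 and 2.74 at its probe sets, and neither passed.

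Of the atypical receptors, Ackr3, a scavenger of Cxcl11 and Cxcl12, read 6912.8, 5199.7 and 4540.0 in the Slc26a4+/+ pools and 5716.6, 5839.5 and 6188.1 in the Slc26a4-/- pools. The Slc26a4-/- arrays lay within the range of the Slc26a4+/+ arrays, with a log2 fold change of 0.11 and a standard error of 0.17 (limma, adjusted p = 0.850). Ackr1, the Duffy receptor of venules and red cells, read 211.7, 341.2 and 420.5 against 198.5, 264.1 and 299.4, which overlapped (log2 fold change -0.32, adjusted p = 0.751). Ackr2, Ackr4 and Ccrl2 were below background on all 6 arrays. For chemerin, the chemoattractant encoded by Rarres2, the receptor Cmklr1 was above background with a log2 fold change of -0.13 (adjusted p = 0.870), and Rarres2 was below background on all 6 arrays.

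Genes of signal transduction downstream of chemokine receptors were counted from a list of 32, of which 29 were measured. Of these 2 rose and none fell, with 8 higher and 1 lower at an unadjusted p under 0.05, beside 8.48% and 6.42% of all genes, and a median log2 fold change of 0.25. Rgs2, a regulator that speeds the turn-off of G proteins, read 240.5, 368.6 and 323.1 in the Slc26a4+/+ pools and 947.6, 895.0 and 1025.2 in the Slc26a4-/- pools, a log2 fold change of 1.64 with a standard error of 0.20 (limma, adjusted p = 0.00322). Rgs10, a regulator abundant in microglia and macrophages, read 511.9, 551.4 and 639.3 against 1037.4, 1300.4 and 1316.5, a log2 fold change of 1.10 with a standard error of 0.17 (adjusted p = 0.0112). Neither gene overlapped between the genotypes. The list had only 1 called gene without Slc26a4+/+ replicate 2 and without Slc26a4-/- replicate 2 or 3. It had 0 without the trend and 0 with Xist as a covariate.

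**Figure D5:**
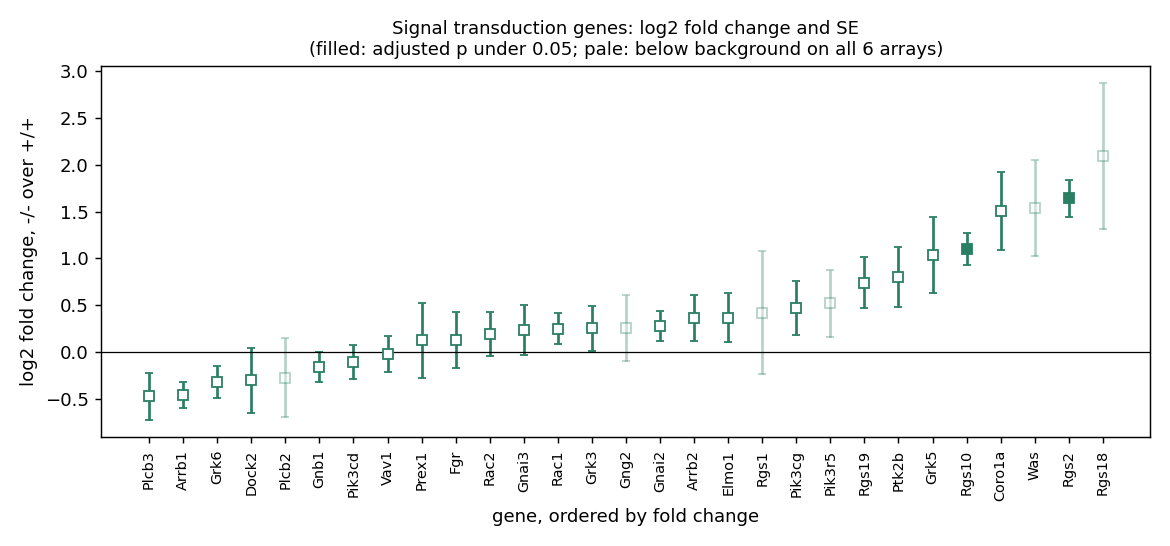
Log2 fold change (Slc26a4-/- over Slc26a4+/+) with its standard error for the 29 measured genes of chemokine signal transduction, ordered by size. Filled symbols passed the test (Rgs2 and Rgs10), and pale symbols lay below background on all 6 arrays.

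The G protein subunits, kinases and arrestins of the list did not pass. Gnai2, the inhibitory alpha subunit used by most chemokine receptors, read 5634 to 8174 in the Slc26a4+/+ pools and 8572.2 to 8593.6 in the Slc26a4-/- pools (log2 fold change 0.27, limma, adjusted p = 0.575). Arrb1, an arrestin that ends receptor signalling, was the 1 gene with a lower signal at an unadjusted p under 0.05, with a log2 fold change of -0.46 (adjusted p = 0.197). The summed signal of the list was 40065 to 49784 in the Slc26a4+/+ pools and 46774 to 48062 in the Slc26a4-/- pools.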

How the data were processed

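Affymetrix mouse 430 2.0 arrays, 6 in all, held stria vascularis RNA of 3 pools per genotype. The authors deposited 1 signal intensity per probe set and array on a linear scale, made by GCOS (named in the submitters' processing notes); the sources used here give neither its version nor the scaling target nor detection calls for each array. Genotype and replicate were taken from the labels. Precision is limited by the number of arrays.

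Of 45101 probe sets, 64 controls were left out. Symbols came from the platform annotation, updated by gene number through RefSeq (GRCm38.p6, 34741 probe sets matched, 0 symbols changed). Of the tested probe sets 34945 had 1 symbol, 932 had several and 9160 were unnamed in that table. A gene was represented by the probe set whose log2 signal was highest on average. Signals under 1 (172 values) were set to 1, and log2 values were compared as deposited. The test was that of limma (version 3.58.1, run in R version 4.3.3) with lmFit and eBayes with a trend, with two-sided p-values adjusted by Benjamini-Hochberg over 45037 probe sets and a threshold of 0.05. A fold against a genotype below background on all its arrays is a lower bound, computed against that background. In simulated data of 45037 probe sets 17% of log2 changes of 1 and 73% of changes of 2 were found (100 of each). The changes were placed only in probe sets above background by the rule, so these rates do not cover members that were not.

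The members, lists, tests and alternatives were chosen with earlier results of these data known. Members with a probe set past the test were given in full, members above background in short, and of other lists the genes that passed, at most 3. Ccl12, Cxcl9, Cxcr4, Gnai2, Arrb1 and fainter probe sets were described after their values were seen. Alternatives covered the floor, filters, centring, the trend, array weights, probe set averaging, covariates, the replicate block and leaving out each array. Deviations of arrays with the same replicate number correlated at 0.25, 0.155 and 0.105 across genotypes. Every such pair was over the limit of 0.1 set for pairing, but so was Slc26a4+/+ array 3 with Slc26a4-/- array 2 (0.127), and the labels do not say what a number marks. Promoters were available for 43 of the 57 genes.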

Additional observations from a re-analysis of the deposited data

How the results depend on the processing

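The direction of every member named with a passed test held under all alternatives fitted, 21 at most per result, and none reversed. The count of members called higher was 2, and it was 1 among genes above background and 1 without the trend. With probe set averaging it stayed 2, with Cxcl16 in place of Cx3cr1. It was 3 with the Gapdh ratio as a covariate, which added Cxcl16. It was 8 with array weights, which added Ccl7, Ccl8, Cxcl11, Cxcl14, Cxcl16 and Cxcr4, and 0 by the methods' paired t-test and 0 with Xist as a covariate. No gene of the array passed that t-test after adjustment, and 14 were higher and 0 lower with Xist as a covariate. At an unadjusted p under 0.05, 4 members were higher and 1 lower by the t-test, and 8 and 1 with Xist. Leaving out 1 array gave 1 to 3. The count of members called lower, 1, was 0 with signals floored at 16, after centring on the median, after quantile normalization, without the trend, by that t-test, and with Xist or the Gapdh ratio as a covariate, and 0 to 1 when 1 array was left out. The count of signal transduction genes called higher, 2, was 0 without the trend, by that t-test and with Xist, 4 with array weights, 4 with the Gapdh ratio, and 1 to 2 when 1 array was left out. With Slc26a4+/+ replicate 1 alone against the Slc26a4-/- arrays, an alternative chosen after seeing the data, the counts were 5, 0 and 4. With the replicate block the counts were 3, 1 and 2, and apart from Cxcl11 it changed no other call. Over all genes, 342 were called higher and 146 lower, against 56 and 10 without the trend, 1265 and 910 with array weights, 228 and 49 after centring on the median, and 197 and 82 with the floor of 16. The number of members above background was 18 to 20. The median log2 fold change of all genes moved from -0.03 to 0.05 with median centring. Where no cause is given by the construction of an alternative, the cause was not tested. Signals near background limit 38 of the 57 members.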

Other observations

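Proteins that cut, trim or present chemokines were counted from a list of 16 genes, of which 15 were measured. Of these 2 rose and none fell (limma, 5 higher and 0 lower at an unadjusted p under 0.05, beside 8.48% and 6.42% of all genes), with a median log2 fold change of 0.20. Gpc1, a glypican whose heparan sulphate chains bind chemokines, read 506.4, 701.7 and 737.5 in the Slc26a4+/+ pools and 2229.4, 1639.2 and 2078.6 in the Slc26a4-/- pools (log2 fold change 1.62, standard error 0.19, limma, adjusted p = 0.00285). Mmp14, a membrane-bound metalloproteinase, read 1684.4, 2358.1 and 1475.5 against 4338.8, 3613.5 and 3621.6 (1.09, standard error 0.18, adjusted p = 0.0177). The genotypes did not overlap for either gene. Adam10 and Adam17, the sheddases of Cx3cl1 and Cxcl16, had log2 fold changes of 0.36 and 0.18 and did not pass.

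Chemokine-like genes outside the naming rule did not pass in any of 7 (limma), with 2 lower and none higher at an unadjusted p under 0.05. The platelet chemokine Pf4 had a log2 fold change of 0.20, and Mif, the macrophage migration inhibitory factor, read 8667.4, 11770 and 15592 in the Slc26a4+/+ pools and 7749.9, 8414.4 and 7962.6 in the Slc26a4-/- pools (-0.54, adjusted p = 0.307). Of the 4 member probe sets with several symbols, 1 was above background on all arrays, with a log2 fold change of -0.51 (adjusted p = 0.383).

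Other cell type markers were as follows. None of 6 neutrophil, 5 mast cell, 2 red blood cell, 7 endothelial, 5 pericyte or 4 basal cell genes passed (limma). At an unadjusted p under 0.05, 2 endothelial and 2 pericyte genes were higher, 1 pericyte and 1 red blood cell gene were lower, and the other lists had 0. Of 8 spiral ligament fibrocyte genes 5 rose, of 6 marginal cell genes 2 fell, and of 5 intermediate cell genes 1 rose. The summed fibrocyte signal was 6636.1 to 9678.5 in the Slc26a4+/+ pools and 12367 to 14273 in the Slc26a4-/- pools, and its part in the chemokine signals was not tested.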
